A study of Homo sapiens with 4 samples.

Results

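The genes described here are 9 members of the PARP family and DTX3L, chosen by name as DNA repair PARPs beside interferon-induced PARPs. All 10 were matched by symbol to identifiers in a count table of 58735 genes, and all 10 passed the filter on low counts. RNA was sequenced from wild-type cells of the label A549, an established line from a human lung adenocarcinoma, grown in serum-containing medium with no drug or cytokine named, stained with an antibody against the adhesion protein ICAM1 and sorted. The ICAM1-high and the ICAM1-low subset were each represented by 2 libraries, and the comparison asks how the subsets differ in gene expression. Whether the libraries are from separate cultures is not stated, so the spread on which the p-values rest may be technical.

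PARPs are enzymes that take ADP-ribose from NAD and attach it to proteins. PARP1 and PARP2 build chains of it at DNA breaks and thereby recruit repair factors, whereas most other members add a single unit. Interferons raise another group of the family, whose promoters can carry the interferon-stimulated response element (ISRE). In that group PARP9 works as a complex with DTX3L, a ubiquitin ligase that is not itself a PARP.

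Library totals ran from 16272591 to 17638647 counts, so that 3 counts in a library correspond to 0.161 to 0.196 counts per 1000000 (CPM, scaled between libraries by the TMM method), for counting error only. ICAM1, the sorting marker, was at 113 ± 3.60 CPM in ICAM1-high (SD, n = 2) and at 4.75 ± 0.202 CPM in ICAM1-low (n = 2). Genes of the chromosome 9 region that A549 is known to lack were counted in both ICAM1-high libraries, which goes against their cell line label. CDKN2A had 1009 and 1214 counts there and 0 in each ICAM1-low library. Against a floor of 3 counts over the ICAM1-low libraries this is at least 620-fold higher. CDKN2B had 174 and 182 against 0, and MTAP 459 and 463 against 1 and 8. Since this holds for both ICAM1-high libraries, no comparison without them can be made, and a difference between subsets cannot be told apart from a difference between cell populations. Of 10 markers of lung epithelium and A549 cells 7 were tested, of which 4 were called higher and 3 lower, by the test given below. That test called 30.4% of all genes tested higher and 29.4% lower. The surfactant genes SFTPB and SFTPC and the lung regulator NKX2-1 were not tested and had at most 5 counts in any library. LAMP3 (log2 fold change, ICAM1-high minus ICAM1-low, 4.43), KRT18 (0.29) and ABCA3 (0.20) were higher, as was KRT8 (3014 and 3134 against 1312 and 1267 CPM). LAMP3 was scarce, with 103 and 108 counts in ICAM1-high and 4 in each ICAM1-low library. ALDH1A1 (-1.06), AKR1C3 (-0.98) and EPCAM (-0.63) were lower. KRT8, KRT18, ALDH1A1 and AKR1C3 were above 1000 CPM in every library, and the mean of ALDH1A1 was 5417 CPM in the ICAM1-high and 11321 CPM in the ICAM1-low libraries.

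Of the 10 genes, 8 were higher and 1 was lower in ICAM1-high, and PARP2 did not pass the test. A gene was called at an adjusted p under 0.05 (edgeR quasi-likelihood test, Benjamini-Hochberg adjustment over all genes tested). Of 16250 genes tested, 59.7% were called in either direction, 30.4% higher and 29.4% lower, so a call by itself was common. The median log2 fold change, ICAM1-high minus ICAM1-low, was 1.01 over the 10 genes and 0.01 over all genes tested. All 5 interferon-induced members were higher, with log2 fold changes from 1.00 to 4.32. The 3 DNA repair members lay between 0.08 and 0.50, and PARP4 was the member that fell. In bulk RNA, fewer cells of a kind and less RNA per cell cannot be told apart.

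**Figure D1:**
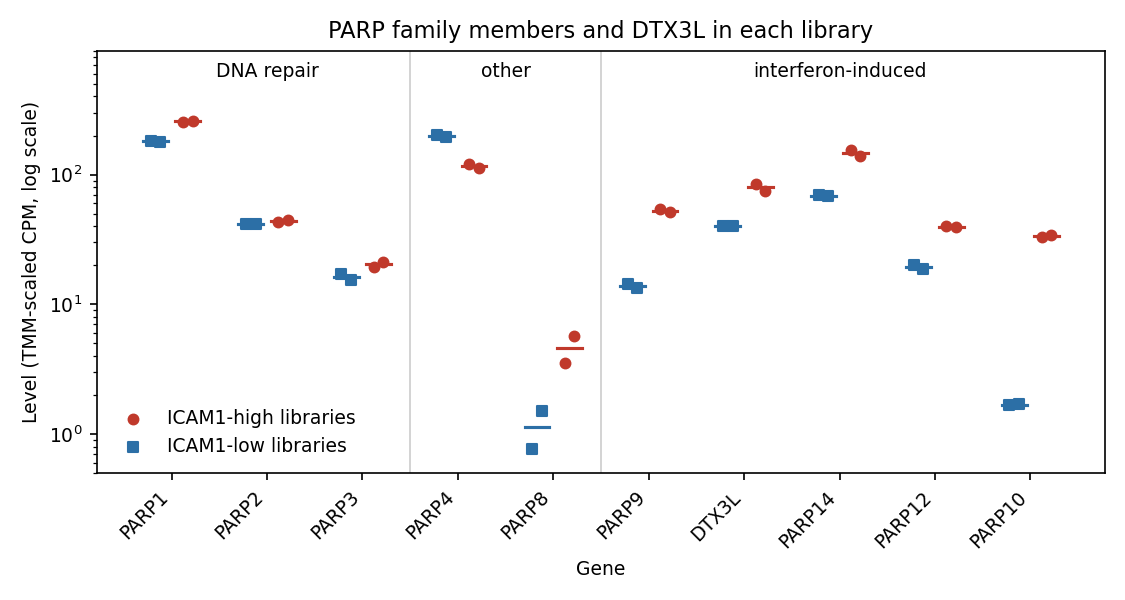
Each point is the level of a gene in a single library, in TMM-scaled CPM on a log axis, with red circles for ICAM1-high, blue squares for ICAM1-low and bars for the mean of 2 libraries. The subsets are far apart for PARP10 (33.7 against 1.68 CPM), close for PARP2 (44.1 against 41.7 CPM), and in the opposite order for PARP4 (117 against 198 CPM).

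Promoter sequences were taken from RefSeq (GRCh38.p14), as windows from 250 bases before to 50 bases after each start site, and 8 of the 10 genes had at least 1 window. They are shown because 4 of the 5 interferon-induced members hold a short motif, the ISRE core, with PARP9 and DTX3L sharing the same match. Since interferon-induced genes can carry the ISRE, its presence is not independent of the choice of genes. The ISRE core was searched on both strands as GAAA, any 2 bases and GAAA again, and was found in PARP9, DTX3L, PARP12 and PARP14, and in none of the windows of PARP1, PARP2, PARP3 and PARP8. PARP4 and PARP10 had no window. The stretches below run 5′ to 3′ along the transcribed strand of the named gene, or along that of DTX3L for the pair, with the match in capitals. PARP1, with no match, is given for comparison.
DTX3L and PARP9: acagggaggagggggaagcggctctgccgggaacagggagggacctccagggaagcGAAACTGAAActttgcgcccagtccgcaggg
PARP14: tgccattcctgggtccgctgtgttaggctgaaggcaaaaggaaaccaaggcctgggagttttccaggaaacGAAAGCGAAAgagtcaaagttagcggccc
PARP12: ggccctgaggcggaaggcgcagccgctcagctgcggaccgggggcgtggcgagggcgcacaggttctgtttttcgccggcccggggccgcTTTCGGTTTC
PARP1: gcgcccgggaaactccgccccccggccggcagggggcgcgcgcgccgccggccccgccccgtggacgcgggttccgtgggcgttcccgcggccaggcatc

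The stretch for DTX3L and PARP9 is chr3:122564276-122564362 on the plus strand. These genes start in opposite directions, with 37 bases between a PARP9 start at 122564300 and the DTX3L start at 122564338, and the stretch adds 25 bases on either side. A single match, chr3:122564332-122564341, therefore lies in a window of each gene. The other PARP9 window, chr3:122564735-122565034, held no match, and which PARP9 start was used was not tested. The PARP14 stretch is the 100 bases before its start (chr3:122680739-122680838, plus strand), with the match beginning 29 bases before the start. The PARP12 stretch (chr7:140062952-140063051, minus strand) ends in the match, written there as TTTCGGTTTC because it lies on the opposite strand. The PARP1 stretch is chr1:226408094-226408193 on the minus strand.

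The same letters occurred in 4.38% of the 27305 genes with a window. Of 34 interferon-induced genes outside the PARP family, 30 had a window and 19 of those (63.3%) held the ISRE core. The other 7 PARP family genes with a window held it in 0 cases, and the 13 break repair genes with a window in 0 cases. Among those 7 was ZC3HAV1, which is itself interferon-induced and was higher in ICAM1-high. Among 11505 genes tested that had a window, the ISRE core was present in 3.98%. It was present in 6.82% of 1173 called higher by at least 2-fold and in 4.32% of 2570 called higher by less. The shares were 3.58% of 4163 not called and 3.28% of 3599 called lower. A match describes letters in a window and is not evidence that a factor was bound.

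Among the DNA repair members, PARP1 (ENSG00000143799, chromosome 1, 226360691 to 226408079, minus strand, GRCh38), the main sensor of DNA strand breaks, had 253 and 260.3 CPM in ICAM1-high and 182 and 179 CPM in ICAM1-low. The subsets did not overlap, and PARP1 was 1.42-fold higher in ICAM1-high, with a log2 fold change of 0.50, a standard error (SE) of 0.05 and adjusted p = 8.78e-16. The annotated pseudogenes PARP1P1 and PARP1P2, between which and PARP1 reads could be split, had at most 2 counts in any library. Not overlapping is common here, since the subsets were apart for 78.3% of all genes tested. PARP2 (ENSG00000129484, chromosome 14, 20343582 to 20357905), which backs up PARP1 at breaks, had 43.4 and 44.9 CPM against 41.5 and 41.9 CPM. Its log2 fold change was 0.08 (SE 0.07, adjusted p = 0.35), and with scaling by library size alone, which moved the median of all genes from 0.01 to 0.19, it was 0.26 with adjusted p = 0.00211. PARP3 (ENSG00000041880, chromosome 3, 51942345 to 51948867), which acts in end joining, had 19.4 and 21.3 CPM against 17.2 and 15.5 CPM. The log2 fold change was 0.32 (SE 0.11, adjusted p = 0.0097). The PARP3 call was lost with DESeq2 (adjusted p = 0.0934), without ICAM1-high replicate 2 (0.0981) and without ICAM1-low replicate 2 (0.159).

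PARP4 (ENSG00000102699, chromosome 13, 24420926 to 24512810), a component of the ribonucleoprotein particles called vaults, had 121 and 113 CPM in ICAM1-high and 204 and 193 CPM in ICAM1-low. Both ICAM1-low libraries were above both ICAM1-high libraries, and PARP4 fell by 0.76 on the log2 scale (SE 0.05, adjusted p = 5.87e-22), a level 1.70-fold higher in ICAM1-low. PARP8 (ENSG00000151883, chromosome 5, 50665899 to 50846522), an enzyme that adds single ADP-ribose units, was the scarcest member. Its counts were 66 and 104 in ICAM1-high and 12 and 23 in ICAM1-low, where its mean was 1.13 ± 0.518 CPM (SD, n = 2) against 3.54 and 5.66 CPM in the ICAM1-high libraries. Relative to their mean, libraries of a subset differed from each other more for PARP8 than for the other members, but the subsets did not overlap. Its log2 fold change was 2.02 (SE 0.30, adjusted p = 4.99e-08), and it ranged from 1.60 to 2.56 when single libraries were left out.

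The largest difference among the 10 genes was that of PARP10 (ENSG00000178685, chromosome 8, 143977153 to 144012772, minus strand), an interferon-induced enzyme that adds single ADP-ribose units. PARP10 had 615 and 632 counts in ICAM1-high and 26 in each ICAM1-low library, or 33.0 and 34.4 CPM against 1.66 and 1.70 CPM. It was 20.0-fold higher (log2 fold change 4.32, SE 0.15, adjusted p = 2.47e-36). The strand setting of the counting is not given in the sources used here, and PARP10 shares 324 exonic bases with GRINA on the other strand. GRINA had 2017 and 1917 counts in the ICAM1-low libraries, in which PARP10 had 26, and its own log2 fold change was 0.22 (SE 0.05, adjusted p = 2.55e-04). The ratio of PARP10 to GRINA counts was 0.235 and 0.223 in ICAM1-high and 0.0129 and 0.0136 in ICAM1-low.

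PARP9 (ENSG00000138496, chromosome 3, 122527924 to 122564577, minus strand), a macrodomain protein that binds ADP-ribose, had 54.3 and 51.2 CPM in ICAM1-high and 14.3 and 13.4 CPM in ICAM1-low. It was 3.81-fold higher (log2 fold change 1.93, SE 0.09, adjusted p = 1.23e-29). Its partner DTX3L (ENSG00000163840, chromosome 3, 122564238 to 122575203, plus strand) had 85.2 and 75.3 CPM against 40.0 and 40.4 CPM. On the log2 scale DTX3L rose by 1.00 (SE 0.07, adjusted p = 7.6e-21). Although PARP9 has an annotated start close to that of DTX3L, PARP9 counts per DTX3L count differed. They were 0.637 and 0.68 in ICAM1-high, compared with 0.356 and 0.332 in ICAM1-low. These ratios did not overlap, but 2 libraries against 2 cannot give a two-sided exact permutation p below 0.333. Their annotated exons share 217 bases on opposite strands, and unless the counting used strand, reads from that overlap cannot be told apart.

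PARP14 (ENSG00000173193, chromosome 3, 122680618 to 122730840, plus strand), another macrodomain enzyme and a known cofactor of STAT6, had 154 and 139 CPM in ICAM1-high and 69.8 and 67.9 CPM in ICAM1-low. It rose by 1.08 on the log2 scale (SE 0.06, adjusted p = 9.83e-27). Counts of PARP14 per DTX3L count were 1.80 and 1.84 in ICAM1-high and 1.74 and 1.68 in ICAM1-low, a closer match than PARP9 showed with the same gene. PARP12 (ENSG00000059378, chromosome 7, 140023744 to 140063721, minus strand), a zinc finger member with antiviral activity, had 40.0 and 39.3 CPM against 20.3 and 18.8 CPM. It was 2.03-fold higher (log2 fold change 1.02, SE 0.09, adjusted p = 2.92e-16). DTX3L, PARP12 and PARP14 thus lay within 0.09 of each other on the log2 scale, while PARP9 and PARP10 stood above them.

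Levels can be compared between genes only per length, as CPM per kb of annotated exon. In ICAM1-low, PARP4 led at 32.6 ± 1.19 CPM per kb, ahead of PARP1 at 25.2 ± 0.275 and PARP2 at 10.2 ± 0.0603 (SD, n = 2 each). In ICAM1-high, PARP1 led at 35.8 ± 0.763 CPM per kb, ahead of PARP4 at 19.2 ± 0.975, and PARP14 (13.9 ± 1.01) and DTX3L (13.7 ± 1.19) were above PARP2 (10.8 ± 0.271). The values of PARP14 and DTX3L overlapped between the ICAM1-high libraries, whereas every other neighbouring pair in either order was apart. At the lower end in ICAM1-high stood PARP3 (6.94), PARP12 (6.31), PARP9 (5.90), PARP10 (5.59) and PARP8 (0.458 CPM per kb). In ICAM1-low the lower end was DTX3L (6.86), PARP14 (6.56), PARP3 (5.58), PARP12 (3.11), PARP9 (1.55), PARP10 (0.278) and PARP8 (0.113 CPM per kb). In length-scaled level PARP14 and DTX3L were thus above PARP2 in ICAM1-high and below it in ICAM1-low, while PARP12, PARP9 and PARP10 came in that order below PARP3 in both subsets.

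**Figure D2:**
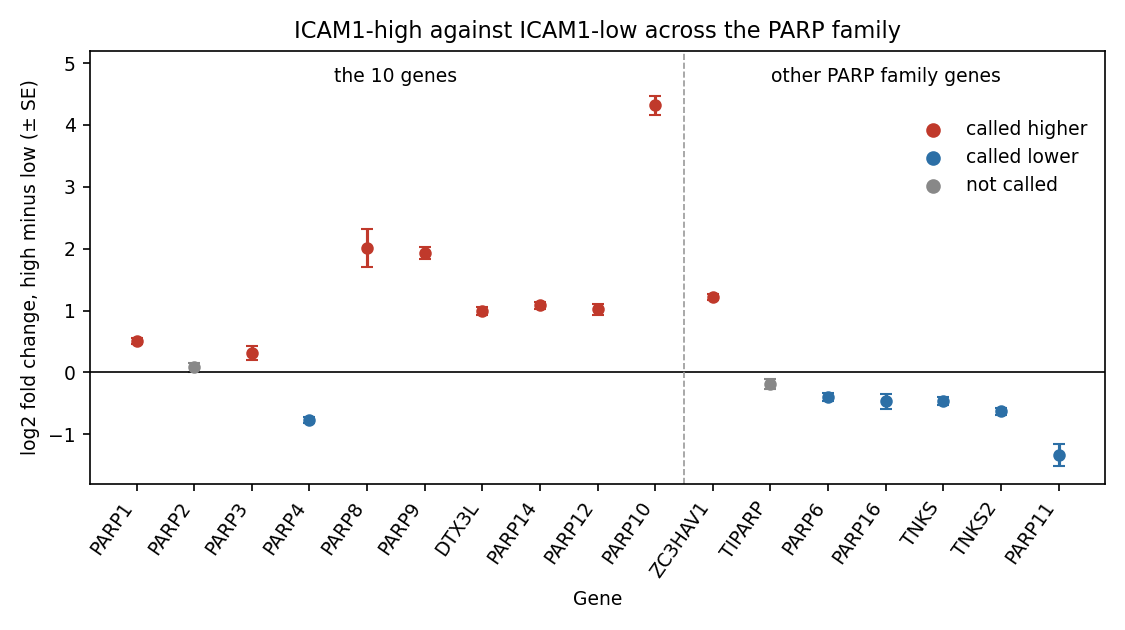
Points show the log2 fold change of each gene, ICAM1-high minus ICAM1-low, with bars for the SE, red for genes called higher, blue for lower and grey for not called. The 10 genes are left of the dashed line and the 7 other PARP family genes tested are right of it, where ZC3HAV1 is higher and 5 of the others are lower.

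The rest of the family mostly moved the other way. Of 8 further PARP genes 7 were tested, of which 1 was higher and 5 were lower, beside 30.4% and 29.4% of all genes tested. Their median log2 fold change was -0.46, or -0.29 with scaling by library size alone. ZC3HAV1, the zinc finger antiviral protein, which is itself interferon-induced, had 332 and 319 CPM against 141 and 138 CPM, and its log2 fold change was 1.22 (SE 0.05, adjusted p = 3.97e-35). PARP11, an enzyme that adds single ADP-ribose units, had 4.35 and 3.65 CPM against 9.34 and 10.8 CPM and fell by 1.33 (SE 0.18, adjusted p = 1.47e-09). The tankyrase genes, whose products control the turnover of axin, fell by 0.63 for TNKS2 (SE 0.06) and 0.47 for TNKS (SE 0.06). PARP16, a protein of the endoplasmic reticulum membrane, fell by 0.46 (SE 0.12), and PARP6 fell by 0.40 (SE 0.07). TIPARP, a target of the aryl hydrocarbon receptor, did not pass the test (log2 fold change -0.18, SE 0.08, adjusted p = 0.0527), but was called lower under 4 alternatives, with adjusted p from 0.0316 to 0.0494. PARP15, which lies between DTX3L and PARP14, had 3 counts in ICAM1-high replicate 1 and 0 in the other libraries, and was not tested.

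**Figure D3:**
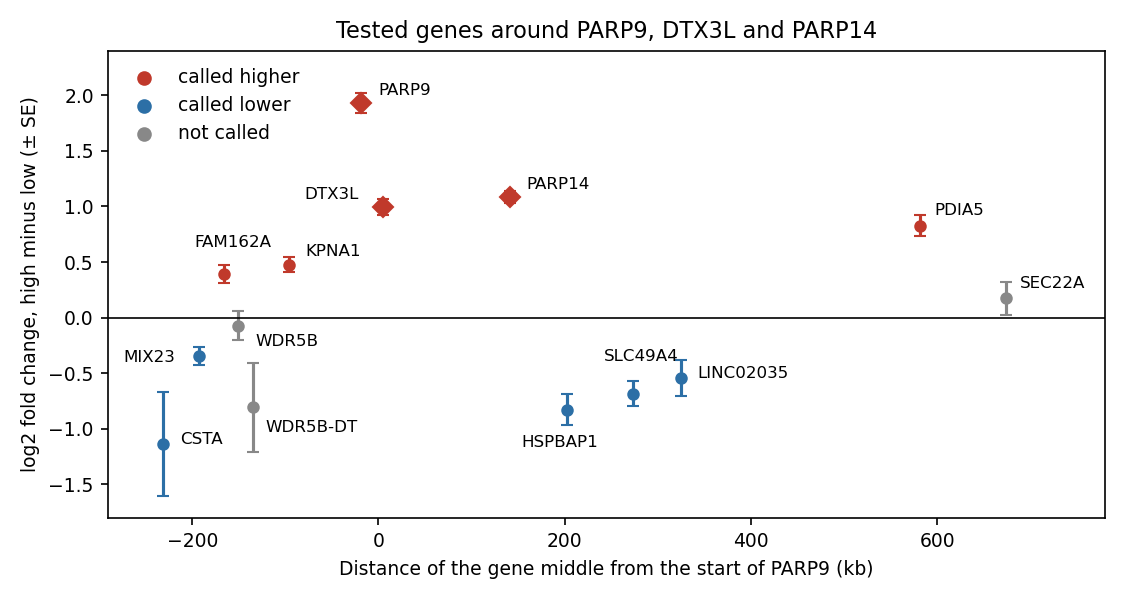
Each point is a tested gene within 500000 bases of the stretch from PARP9 to PARP14 on chromosome 3, placed by the distance of its middle from the start of PARP9 in kb, with its log2 fold change and SE. Diamonds mark PARP9, DTX3L and PARP14, which lie above all 11 other tested genes, and colours show the call.

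PARP9, DTX3L and PARP14 are neighbours on chromosome 3, and the genes around them moved in both directions. Within 500000 bases on either side, 11 other genes were tested, of which 3 were higher and 5 lower. Their median log2 fold change was -0.34. Of all genes tested, 30.4% were higher and 29.4% lower. HSPBAP1, the next gene after PARP14, fell by 0.83 (SE 0.14) and its neighbour SLC49A4, a membrane transporter, fell by 0.69 (SE 0.11). LINC02035, a noncoding gene on the same side, fell by 0.54. PDIA5, a protein disulfide isomerase gene farther along that side, rose by 0.83 (SE 0.09). On the PARP9 side, KPNA1, an importin and the next tested gene beyond the end of PARP9, rose by 0.48 (SE 0.07). FAM162A, on the PARP9 side too, rose by 0.39. MIX23 and CSTA, also on the PARP9 side, fell by 0.34 and by 1.13 (SE 0.47). CSTA, which encodes cystatin A, had 9 to 21 counts. WDR5B (-0.07), WDR5B-DT (-0.81) and SEC22A (0.17) did not pass the test. With scaling by library size alone, 3 of the 11 were lower in place of 5, with a median of -0.17, and with a minimum average of 1 CPM the median was -0.20.

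**Figure D4:**
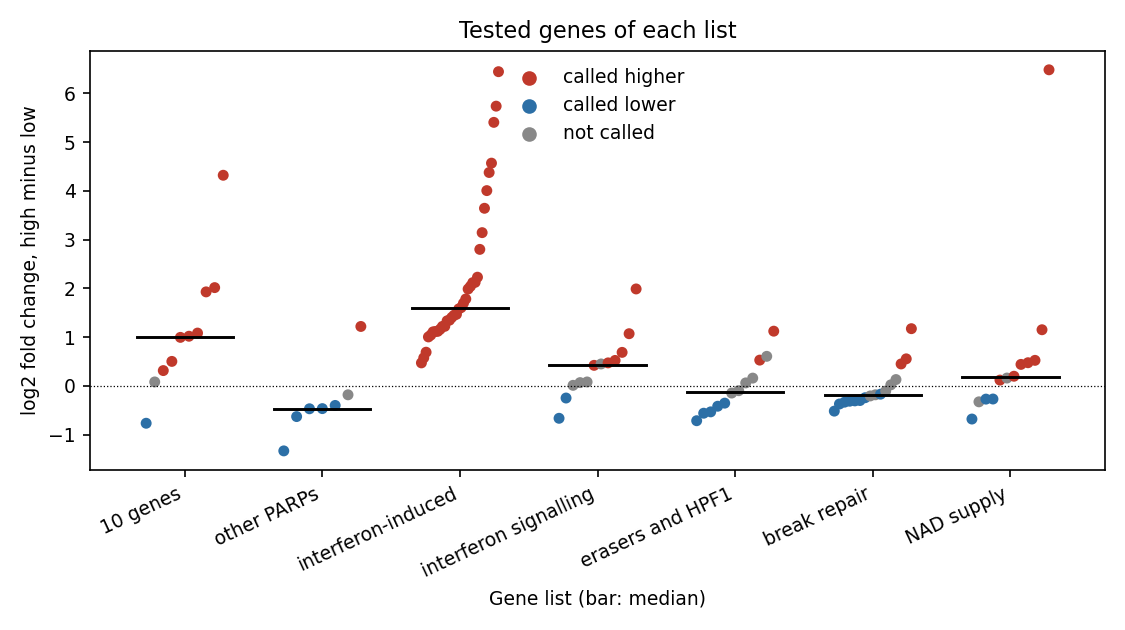
Each point is a tested gene of the named list, placed by its log2 fold change, ICAM1-high minus ICAM1-low, and coloured by its call, with a bar at the median. All 34 interferon-induced genes are above 0, while the erasers, break repair and NAD supply lists hold genes on both sides of it.

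Interferon-induced genes outside the family were higher in 34 of 34 cases, with a median log2 fold change of 1.59 and a range of 0.47 to 6.45. IFITM3 and BST2, which encode antiviral membrane proteins, rose by 4.38 (SE 0.08) and 6.45 (SE 0.15), and IFI6 by 3.14 (SE 0.07). Of these 34 genes, 5 had a larger log2 fold change than PARP10, 14 a larger one than PARP9, 29 than PARP14, 30 than PARP12 and 31 than DTX3L. In ICAM1-low, 4 of the 34 averaged less than 1 CPM. Of 12 receptors, kinases and transcription factors of interferon signalling, 6 were higher and 2 lower, beside 30.4% and 29.4% of all genes tested. The median of this signalling list was 0.44. IRF7, a transcription factor of the interferon response, rose by 1.99 (SE 0.12), whereas the kinase gene JAK1 fell by 0.66 (SE 0.05).

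Genes listed as erasers (enzymes that remove or break down ADP-ribose, and related genes) were mixed. HPF1, which directs PARP1 and PARP2 to serine, was listed with them. Of these 12 genes, 2 were higher and 5 lower, beside 30.4% and 29.4% of all genes tested, with a median of -0.12. With scaling by library size alone 4 were higher and 3 lower, with a median of 0.05. The median was -0.058 without ICAM1-high replicate 1 and -0.20 without ICAM1-high replicate 2. OARD1 and NUDT9 fell by 0.71 (SE 0.10) and 0.53 (SE 0.09), and MACROD1, a macrodomain hydrolase, rose by 1.12 (SE 0.16). Repair partners of PARP1, PARP2 and PARP3 were lower in 8 of 16 cases and higher in 3, with a median of -0.19. The shares lower and higher over all genes tested were 29.4% and 30.4%. FEN1, the flap endonuclease that also serves replication, rose by 1.17 (SE 0.06). PRKDC and XRCC6, which encode the catalytic subunit of DNA-PK and a Ku subunit, fell by 0.52 (SE 0.04) and 0.33 (SE 0.04). The number of lower repair partners was 3 with scaling by library size alone, with a median of -0.019, and 5 without ICAM1-low replicate 1.

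For enzymes and carriers of NAD, the substrate of all active PARPs, 7 of 12 were higher and 3 lower, with a median of 0.18. Over all genes tested, 30.4% were higher and 29.4% lower. QPRT, which makes NAD precursor from quinolinate, had 503 and 590 counts in ICAM1-high and 8 and 2 in ICAM1-low, so that its log2 fold change was 6.48 (SE 0.23). NADK, which phosphorylates NAD, rose by 0.44 (SE 0.07), and NAMPT, the rate-limiting enzyme of NAD salvage, fell by 0.27 (SE 0.04). The median was 0.35 with scaling by library size alone. The number of higher genes was 4 with DESeq2 and 3 without ICAM1-low replicate 1.

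Some markers of other cell types were also higher in ICAM1-high, while others were lower, not called or near 0. For comparison, 30.4% of all genes tested were higher and 29.4% lower. Of 10 fibroblast markers 6 were tested, of which 4 were higher, and PDGFRA (log2 fold change -0.03) and THY1 (0.58) were not called. In ICAM1-low, 5 of those 6 averaged less than 1 CPM. A marker that passes the filter only through its ICAM1-high counts could hardly be called lower, so such calls carry little information. The summed level of the 10 was 32.6 and 36.6 CPM in ICAM1-high and 5.24 and 6.52 CPM in ICAM1-low. COL1A1 carried most of it, with 505 and 551 counts against 60 and 66, while COL1A2, COL3A1 and POSTN had at most 1 count in any library. Of 10 endothelial markers 5 were tested, of which 4 were higher and ESAM was lower (log2 fold change -0.58). In ICAM1-low, 3 of those 5 averaged less than 1 CPM, with the same limit. The sums over the 10 were 26.5 and 30.7 against 9.72 and 8.74 CPM. ENG had 284 and 346 counts against 64 and 44, ERG had 37 and 52 against 0 (by the floor used for CDKN2A, higher by at least 24.8-fold), and VWF, KDR and TEK had at most 5 counts in any library. Of 12 leukocyte markers PTPRC, CD3E and MS4A1 were at 0 in all libraries, CD14 was higher and ITGAM lower among the 2 tested, and the sums were 27.3 and 25.2 against 19.4 and 19.8 CPM. Whether cells of other types were in the libraries, and what part they had in the differences of the PARP genes, was not tested.

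By Euclidean distance of centred log2 levels over the 4 libraries, among the protein-coding genes averaging 5 CPM or more, the pattern nearest to that of PARP10 was that of OXCT1 (distance 0.04), an enzyme of ketone body use. Nearest to PARP4 were MAP3K20 and SHLD1 (0.01 and 0.02), a kinase and a member of the shieldin complex, and AKR1C2 (0.02), an aldo-keto reductase whose reads may be shared with its paralogs. With 4 libraries in 2 subsets, such a distance mainly compares the size of the difference between subsets.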

How the data were processed

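The authors deposited a table of raw counts, whole numbers for every gene, with a column for each library, and the column names equal the samples' descriptions. Per the labels' protocols, Trizol was used for total RNA and a SMARTer mRNA kit for the libraries. The build was GRCh38 and FastQC 0.10.1 was run, per the submitters' processing notes. Aligner, counting program and strand setting were not given in the sources used here. All 58735 identifiers were found in GENCODE release 29, which gave positions and exon lengths.

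From the counts, subsets were compared with edgeR 4.0.16 in R 4.3.3 (quasi-likelihood test, robust, TMM scaling, default filter, at minimum counts of 10 per library and 15 in total). All 10 genes would pass that minimum in each of the 4 libraries. Libraries of a subset differed beyond sampling noise (chi-square per degree of freedom 3.14 for ICAM1-high and 1.88 for ICAM1-low). Adjusted p-values are Benjamini-Hochberg values over 16250 genes. The labels give both subsets replicate numbers 1 and 2, and no source says that a number marks a shared culture. Named were all PARP family genes, per list the 3 lowest adjusted p-values and any gene at 0, all tested chromosome 3 neighbours, and nearest patterns, and CDKN2A, CDKN2B, MTAP and ICAM1 check the labels. Some genes that this rule names are not reported here. Other members of the marker lists named for their counts or calls were chosen after their values were seen. Counts of 15882 genes were simulated for this comparison, with the same dispersion (0.0013) for every gene. Changed genes averaged at least 1 CPM, and equal numbers were raised and lowered. The test recovered 26 of 50 changed 1.25-fold, 41 of 50 changed 1.5-fold, 43 of 50 changed 2-fold and all 50 changed 4-fold. It called 8 unchanged genes. In the data 59.7% of genes tested were called, far more than were changed here, so these rates need not hold there. Genes and lists were chosen with earlier results of these data known.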

Additional observations from a re-analysis of the deposited data

How the results depend on the processing

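Alternatives were DESeq2 size factors, library size alone, the DESeq2 test (version 1.42.0), limma-voom (limma 3.58.1), no filter, a minimum average of 1 CPM, a replicate block, an adjusted p under 0.01, a test against 1.2-fold, and each library left out, where the spread of the lone library is taken from the other subset. Of 130 fold changes of the 10 genes under them, 125 kept direction and call, 4 of PARP3 lost the call, including the 1.2-fold test (adjusted p = 0.255), and 1 of PARP2 gained it. Members called higher numbered 7 to 8, and lower 1, with single libraries left out. With library size alone, calls were 6735 higher and 3124 lower, so that 68.3% were higher in place of 50.8%, and with the 1.2-fold test 2932 were lower. That scaling left 3 lower chromosome 3 neighbours, 4 higher and 3 lower erasers, 3 lower repair partners and 1 lower signalling gene. The 1.2-fold test left 3 lower neighbours, 3 lower erasers, 2 lower repair partners, 1 lower NAD gene and 1 lower signalling gene. DESeq2 gave 4 higher NAD genes and 1 lower signalling gene. With single libraries left out, lower neighbours ranged from 3 to 4, lower repair partners from 5 to 8, higher NAD genes from 3 to 6 and lower signalling genes from 1 to 2. WDR5B, not called, turned to 0.10 with library size alone, and ranged from -0.22 to 0.067 with single libraries left out. Equal replicate numbers did not deviate together (correlation 0.04 over 11217 genes). The replicate block gave 8 members higher and 1 lower, and 4976 genes higher and 4836 lower. TIPARP passed the threshold with the block (adjusted p = 0.0458), with DESeq2 size factors (0.0494), with no filter (0.0478) and without ICAM1-high replicate 1 (0.0316), and did not under the others. The cause of these changes was not tested. Counts were low for PARP8, and PARP15 had too few to be tested.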
